A study of Mus musculus with 19 samples.

Results

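The 10 clock genes followed here were *Per1*, *Per2*, *Per3*, *Cry1*, *Cry2*, *Arntl*, *Clock*, *Nr1d1*, *Nr1d2* and *Dbp*, chosen by name and found by their Ensembl identifiers among the 55487 genes of the count table. Of these, 9 had counts and passed the filter on low counts, which left 15138 genes for testing, whereas *Dbp* had 0 counts in all 19 samples. Levels are given as TMM-scaled CPM, in which the counts of a gene are divided by the size of the library after a correction for genes that take a large share of it.

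Hepatic stellate cells (HSCs) are the retinoid-storing pericytes of the liver, which turn into myofibroblast-like cells when they are plated on plastic or collagen. HSCs were sorted by their ultraviolet fluorescence from the livers of healthy male Balb/c mice of 23 to 24 weeks of age, without any transgene or injury. They were lysed at 0 h without culture (2 samples) or kept on collagen in DMEM with 10% serum for 3, 6, 12, 18 and 96 h (3 samples each) or 24 h (2 samples), and medium was changed at 3 h and 24 h. The samples are numbered 1 to 3 within a timepoint, and replicates 1 and 3 carry the same isolation label at every time while replicate 2 carries the other of the 2 isolation labels. Replicate 1 had no 0 h sample and replicate 3 had no 24 h sample. RNA was sequenced from the 3' end of transcripts (QuantSeq), and total counts ranged from 2073171 to 7690892 per sample, so that 3 counts corresponded to 0.386 to 1.51 CPM. The reads carry no molecular identifiers that were counted, so this limit covers counting error only. The share of counts on mitochondrial genes was 12.7% and 14% at 0 h against 3.62% to 8.14% in culture.

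The mammalian clock is a feedback loop of transcription. BMAL1, encoded by *Arntl*, pairs with CLOCK and switches on the *Per* and *Cry* genes through E-box motifs, and the PER and CRY proteins return to the nucleus and inhibit this pair. The same pair activates *Nr1d1* and *Nr1d2*, whose products REV-ERBα and REV-ERBβ repress *Arntl* through the RORE motif in competition with the ROR receptors, and *Dbp*, whose product binds D-box motifs. Liver cells are known for strong daily rhythms of these genes, and serum given to cultured cells is known to set their clocks. The time of day of the isolations is not given in the sources used here, and no rhythm was fitted because the samples cover a single day and 1 later time.

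The 3 members that the main test (edgeR) called higher than at 0 h at more than 1 time in culture were *Nr1d1*, *Nr1d2* and *Cry2*. The 250 bases before the first listed start of each are shown because of these calls. *Per1* is added as a gene with an E-box that was not called. The sequences are from RefSeq on GRCm38.p6, written 5′ to 3′ on the strand of the gene, and capitals mark the motif matches. The windows are chr11:98775378-98775627 (minus strand) for *Nr1d1*, chr14:18239107-18239356 (minus strand) for *Nr1d2*, chr2:92434070-92434319 (minus strand) for *Cry2* and chr11:69098699-69098948 (plus strand) for *Per1*.
Nr1d1: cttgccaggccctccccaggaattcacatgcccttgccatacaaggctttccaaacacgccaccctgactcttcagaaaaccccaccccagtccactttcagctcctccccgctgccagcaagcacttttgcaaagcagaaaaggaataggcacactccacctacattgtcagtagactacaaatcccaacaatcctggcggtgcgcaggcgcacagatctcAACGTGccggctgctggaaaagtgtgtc
Nr1d2: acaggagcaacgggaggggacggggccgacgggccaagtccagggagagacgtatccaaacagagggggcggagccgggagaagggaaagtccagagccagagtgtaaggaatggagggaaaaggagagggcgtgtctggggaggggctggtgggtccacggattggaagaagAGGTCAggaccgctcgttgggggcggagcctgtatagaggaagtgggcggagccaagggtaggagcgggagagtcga
Cry2: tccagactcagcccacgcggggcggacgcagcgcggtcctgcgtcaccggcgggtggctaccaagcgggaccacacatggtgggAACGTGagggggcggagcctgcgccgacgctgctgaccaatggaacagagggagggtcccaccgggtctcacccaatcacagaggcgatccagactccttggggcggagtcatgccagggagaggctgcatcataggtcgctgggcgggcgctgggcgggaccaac
Per1: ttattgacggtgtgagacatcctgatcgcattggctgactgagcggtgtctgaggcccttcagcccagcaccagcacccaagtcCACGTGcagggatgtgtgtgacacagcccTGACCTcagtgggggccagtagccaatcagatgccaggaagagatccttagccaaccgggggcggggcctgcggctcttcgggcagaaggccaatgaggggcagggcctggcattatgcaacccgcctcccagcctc

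The motifs searched on both strands were the E-box CACGTG, the variant E′-box CACGTT, the D-box TTANGTAA, the core RORE AGGTCA and the CRE TGACGTCA. The E-box and the E′-box differ in their last letter, so no site was counted as both. *Nr1d1* held an E′-box whose match began 28 bases before the start, *Cry2* held an E′-box at 166 bases and *Nr1d2* held a RORE at 77 bases. *Per1* held an E-box at 166 bases and a RORE at 137 bases. The table gave 13 promoter windows for 9 of the 10 genes, and *Per2* had none. Among the other members, *Cry1* held an E-box at 60 bases and an E′-box at 79 bases, and *Per3* held D-boxes at 205 and 158 bases. *Clock* held a RORE at 119 bases in its first listed window only. The other listed windows of *Clock* and *Per1* held none of these motifs, nor did any listed window of *Arntl* or *Dbp*. Sites outside the 250 bases before a listed start were not searched. For comparison, 6.02% of the 32851 windows of all genes held the E-box, 3.85% the E′-box, 2.06% the D-box, 14% the RORE and 1.55% the CRE, which no member window held. A match is a description of these letters only.

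*Nr1d2* (chr14:18204054-18239127, minus strand), which encodes REV-ERBβ, had the smallest adjusted p among the members. Its level was 22.6 and 29.8 CPM in the 2 samples at 0 h. It was 56.4, 162 and 94 CPM at 3 h and 165, 173 and 209 CPM at 6 h. All samples from 3 h to 24 h lay above both samples at 0 h, and the 6 h samples were the 3 highest of the series. It then stood at 92, 101 and 94.5 CPM at 12 h, at 92.4, 88.1 and 60.4 CPM at 18 h and at 75.7 and 69 CPM at 24 h. The 96 h samples, at 25.5, 23.1 and 15.8 CPM, overlapped the range at 0 h. Compared with 0 h its log2 fold change was 1.99 ± 0.40 (SE) at 3 h (edgeR adjusted p = 0.0068), 2.79 ± 0.41 at 6 h (edgeR adjusted p = 0.000292) and 1.86 ± 0.39 at 12 h (edgeR adjusted p = 0.00384). It was 1.61 ± 0.39 at 18 h (edgeR adjusted p = 0.0112), 1.46 ± 0.41 at 24 h (edgeR adjusted p = 0.0383) and −0.29 ± 0.37 at 96 h (edgeR adjusted p = 0.727). From 24 h to 96 h it fell by 1.75 on the log2 scale (SE 0.36, edgeR adjusted p = 0.0152), the only step between successive times at which edgeR called a member.

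In the order of its means, 6 h (182 ± 23.3 CPM, SD, n = 3) and 3 h (104 ± 53.7 CPM, n = 3) differed by more than either SD, as did 24 h (72.4 ± 4.74 CPM, n = 2) and 0 h (26.2 ± 5.12 CPM, n = 2). Its other neighbours in that order, 3 h and 12 h, 12 h and 18 h, 18 h and 24 h, and 0 h and 96 h, differed by less than the larger SD. Within replicate number 2, *Nr1d2* stood 2.79 above its own 0 h sample at 6 h on the log2 scale, and within replicate number 3 it stood 2.91 above. Its calls at 6 h and 12 h held when any single sample was left out, whereas the calls at 3 h and 18 h were lost without 0 h replicate 3 (edgeR adjusted p = 0.11 and 0.138). The 24 h call was lost without any of the 4 samples compared (edgeR adjusted p = 0.126 to 0.256), and the fall to 96 h without 24 h replicate 1 or 2 (edgeR adjusted p = 0.112 and 0.127).

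*Nr1d1* (chr11:98767932-98775333, minus strand), which encodes REV-ERBα, also peaked at 6 h but varied more between samples. It was at 34.6 and 14.5 CPM at 0 h. It reached 18.9, 125 and 146 CPM at 3 h, 111, 127 and 294 CPM at 6 h and 116, 66 and 117 CPM at 12 h. Replicate 1 at 3 h lay between the 0 h samples, and every sample at 6 h and 12 h lay above them. It was at 35.6, 57.9 and 69.1 CPM at 18 h, at 18.5 and 64 CPM at 24 h and at 24.7, 13.6 and 20.6 CPM at 96 h. Relative to 0 h its log2 fold change reached 2.86 ± 0.81 (SE) at 6 h (edgeR adjusted p = 0.0344) and 2.03 ± 0.77 at 12 h (edgeR adjusted p = 0.0986), both called. At 3 h it was 1.99 ± 0.77 (edgeR adjusted p = 0.213), which passed without 3 h replicate 1 (edgeR adjusted p = 0.0554) and in DESeq2 (adjusted p = 0.0818). No pair of neighbours in the order of its means differed by more than the larger SD.

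The 6 h call of *Nr1d1* was lost without 0 h replicate 2 (edgeR adjusted p = 0.268) or 6 h replicate 2 (edgeR adjusted p = 0.108). The 12 h call was lost in 15 of the 19 fits that left out 1 sample, those other than 3 h replicate 1, 6 h replicate 2 and both 24 h replicates (edgeR adjusted p = 0.0434 to 0.459 over the 19). In the GENCODE annotation the end of *Nr1d1* lies under *Thra*, the thyroid hormone receptor α gene on the other strand, with 263 exonic bases in common and 25% of its last 300 exonic bases. *Thra* had means of 380 CPM at 0 h, 278 CPM at 3 h, 47.3 CPM at 6 h and 8.53 CPM at 12 h, so that its mean was lower at 6 h and 12 h, where *Nr1d1* was highest. The strand setting of the counting is not given in the sources used here, and the part of this overlap in either level was not tested.

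Among the inhibitors of the loop, *Cry2* (chr2:92403646-92434043, minus strand), a cryptochrome that represses the BMAL1 and CLOCK pair, was called higher at 4 times, while the period gene *Per2* was called at 18 h. The level of *Cry2* was 17.1 and 13.5 CPM at 0 h. It was 50.4, 36.2 and 68.6 CPM at 3 h, 56.4, 63.4 and 63 CPM at 6 h and 70.2, 57.8 and 78.4 CPM at 12 h. All these samples lay above 0 h, as did the 18 h samples at 39.7, 43 and 25.6 CPM. At 24 h, with 14.6 and 21.7 CPM, it overlapped the 0 h samples again, and at 96 h it was at 31, 34.2 and 17.7 CPM. The log2 fold change was 1.76 ± 0.45 (SE) at 3 h (edgeR adjusted p = 0.0346), 1.99 ± 0.45 at 6 h (edgeR adjusted p = 0.00896) and 2.17 ± 0.46 at 12 h (edgeR adjusted p = 0.00376). It was 1.24 ± 0.44 at 18 h (edgeR adjusted p = 0.0806, and 0.121 with the replicate number as a replicate block).

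The order of the *Cry2* means was 12 h, 6 h, 3 h, 18 h, 96 h, 24 h and 0 h. Only 96 h (27.6 ± 8.74 CPM, n = 3) and 24 h (18.2 ± 5.05 CPM, n = 2) among neighbours differed by more than the larger SD. The 12 h call held when any single sample was left out. The 3 h call was lost without 0 h replicate 3, 0 h replicate 2 or 3 h replicate 2 (edgeR adjusted p = 0.163, 0.265 and 0.11), and the 6 h call without 0 h replicate 2 (edgeR adjusted p = 0.125). The 18 h call was lost in 10 of 19 such fits, those without either 0 h sample, 3 h replicate 1 or 2, 6 h replicate 2, 12 h replicate 2, 18 h replicate 1 or 3, or either 24 h sample (edgeR adjusted p = 0.0595 to 0.4 over the 19).

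*Cry1*, the other cryptochrome, was found in 8 samples with 15 to 156 counts and was at 0 in 11. It was at 32.6 and 0 CPM at 0 h, at 26.2, 34 and 0 CPM at 3 h, and at 18 and 12.1 CPM at 24 h. It was at 0 in all samples at 18 h and 96 h, where DESeq2 called it lower (adjusted p = 0.0752 and 0.0966) and edgeR did not. With 1 of the 2 samples at 0 h also at 0, no fold is given.

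*Per2* (chr1:91415982-91459324, minus strand), a period protein gene that answers to both the clock and external signals, was at 0 in both samples at 0 h and was found in 14 of the 17 samples in culture. It was at 9.95, 0 and 10.1 CPM at 3 h, at 0, 18.8 and 7.16 CPM at 6 h and at 6.25, 0 and 9.16 CPM at 12 h. It was highest at 18 h, with 20, 58.3 and 33.2 CPM, and stood at 15.4 and 34.6 CPM at 24 h and 5.74, 13.3 and 21.2 CPM at 96 h. All samples from 18 h on lay above the 0 h samples, while 1 sample at each of 3, 6 and 12 h was at 0. The mean stood 24.7-fold above the 0 h limit of 3 counts per library (1.51 CPM) at 18 h, 16.6-fold above it at 24 h and 8.9-fold above it at 96 h. Compared with 0 h, the edgeR adjusted p was 0.0626 at 18 h (called), 0.11 at 24 h and 0.124 at 96 h. The 18 h call was lost without 0 h replicate 3, 0 h replicate 2 or 18 h replicate 3 (edgeR adjusted p = 0.217, 0.263 and 0.102), and DESeq2 called *Per2* at all 6 times (adjusted p = 0.00136 to 0.0465). Where it was found it had at least 20 counts, so that samples at 0 and samples well above the limit occurred within the same timepoint. The limit covers counting error only, so these folds are not lower bounds of the change from 0 h.

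*Per1* (chr11:69095217-69109960, plus strand), a period gene known as an early target of serum and stress signals, had its lower values late in culture. It was at 62.8 and 73.7 CPM at 0 h, and ranged from 26.2 to 81.4 CPM at 3, 6 and 12 h. It was at 5.85, 36.3 and 0 CPM at 18 h, 20.2 and 19.9 CPM at 24 h and 13.8, 15.3 and 16.4 CPM at 96 h. All samples from 18 h on were below both samples at 0 h, but the log2 differences of −2.28 ± 1.15 (SE) at 18 h, −1.77 ± 1.29 at 24 h and −2.17 ± 1.14 at 96 h did not pass the test (edgeR adjusted p = 0.22, 0.477 and 0.291). The 18 h difference passed without 18 h replicate 3 (edgeR adjusted p = 0.0258) and in DESeq2 (adjusted p = 0.0843). At 96 h it passed without 18 h replicate 2 (edgeR adjusted p = 0.0558) and when only 0 h and 96 h were fitted (edgeR adjusted p = 0.0206), as 24 h did when only 0 h and 24 h were fitted (edgeR adjusted p = 0.0782). In the order of the *Per1* means, 6 h and 24 h, and 24 h and 96 h, were the neighbours that differed by more than the larger SD. *Per3*, the third period gene, had 18 and 10 counts in 2 samples and 0 in the other 17, so that changes in it were not detectable at this depth.

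**Figure D1:**
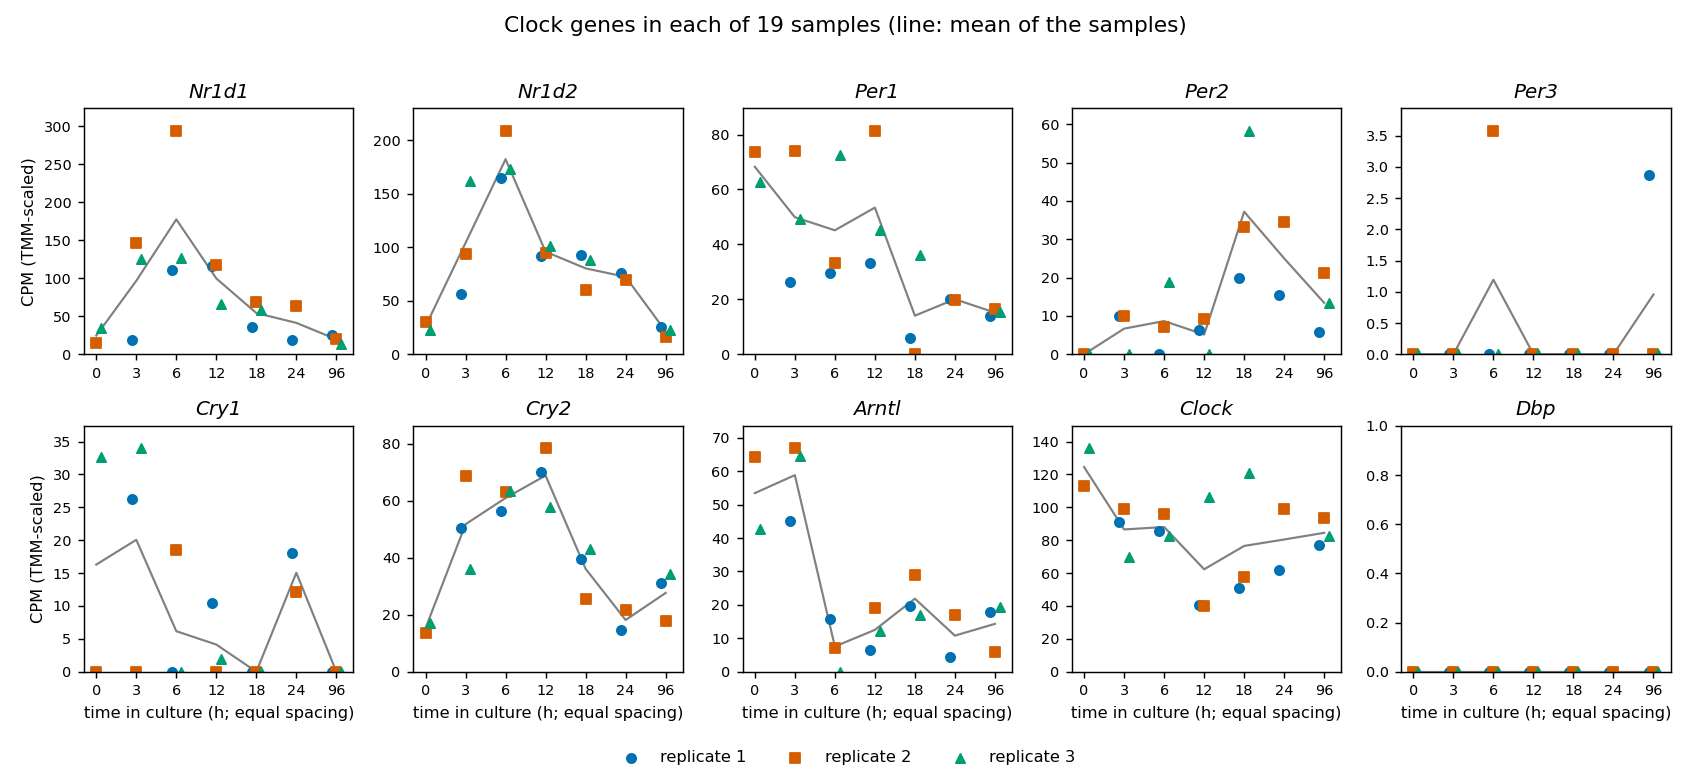
TMM-scaled CPM (y axis, linear, own scale per gene) of the 10 clock genes against hours in culture (x axis, equal spacing), with a point for each of the 19 samples marked by replicate number and a line through the means. *Nr1d1* and *Nr1d2* were highest at 6 h and *Cry2* at 12 h, *Per2* was at 0 at 0 h and highest at 18 h, *Arntl* was low from 6 h on, and *Dbp* was at 0 throughout.

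*Arntl* (chr7:113207465-113314126, plus strand), which encodes BMAL1, was at 42.7 and 64.2 CPM at 0 h and at 45.1, 64.5 and 66.9 CPM at 3 h. At 6 h it was at 15.7, 0 and 6.96 CPM. It stayed at 6.49, 12.1 and 19 CPM at 12 h, 19.7, 17.1 and 28.8 CPM at 18 h, 4.51 and 17.1 CPM at 24 h and 17.8, 19.4 and 5.77 CPM at 96 h. Each of the 14 samples from 6 h on was below every sample at 0 h and 3 h. The log2 difference from 0 h was −2.83 ± 1.17 (SE) at 6 h and −2.09 ± 1.15 at 12 h, which the main test did not call (edgeR adjusted p = 0.165 and 0.252). The difference between 6 h and 3 h was −2.96 ± 1.12 (edgeR adjusted p = 0.195). DESeq2 called *Arntl* lower at 6 h against 0 h (adjusted p = 0.0259), at 12 h against 0 h (adjusted p = 0.0919) and at 6 h against 3 h (adjusted p = 0.014). At 12 h it also passed without 6 h replicate 3 (edgeR adjusted p = 0.0634) and when only 0 h and 12 h were fitted (edgeR adjusted p = 0.0918).

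Within replicate number 2 *Arntl* differed from its own 0 h sample by −3.13 at 6 h and −1.73 at 12 h on the log2 scale. Within replicate number 3 it differed by −6.7, where the 6 h sample was at 0, and by −1.78. In the order of its means, 3 h and 0 h were neighbours that differed by less than the larger SD, and 0 h (53.4 ± 15.2 CPM, n = 2) differed from the next, 18 h (21.9 ± 6.11 CPM, n = 3), by more, as did 18 h from 96 h (14.3 ± 7.43 CPM, n = 3). At 6 h *Arntl* had its lowest mean (7.56 CPM), and *Nr1d1* and *Nr1d2* had their highest (177 and 182 CPM). The *Arntl* means at 6 h and 24 h (10.8 CPM) were not separated beyond their spread (larger SD 8.9 CPM). At 12, 18 and 24 h *Arntl* was also below its 0 h mean with both REV-ERB genes above theirs. At 3 h, however, *Arntl* had its highest mean (58.8 CPM) with *Nr1d1* and *Nr1d2* at 96.6 and 104 CPM. At 96 h *Arntl* was at 14.3 CPM while both REV-ERB genes had their lowest means (19.6 and 21.5 CPM). An effect of the REV-ERB genes on *Arntl* was not tested.

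*Clock* (chr5:76209868-76304792, minus strand), the partner of BMAL1, differed less between times. It was at 136 and 113 CPM at 0 h and between 40.2 and 121 CPM in culture, with 1 sample at 18 h overlapping the 0 h range. Its largest difference was −0.99 ± 0.43 (SE) on the log2 scale at 12 h (edgeR adjusted p = 0.147), which DESeq2 called (adjusted p = 0.0311). The mean at 0 h (124 ± 16.3 CPM, n = 2) was above that at 6 h (88.1 ± 7.11 CPM, n = 3), the next in order, by more than the larger SD, and the other neighbours differed by less.

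**Figure D2:**
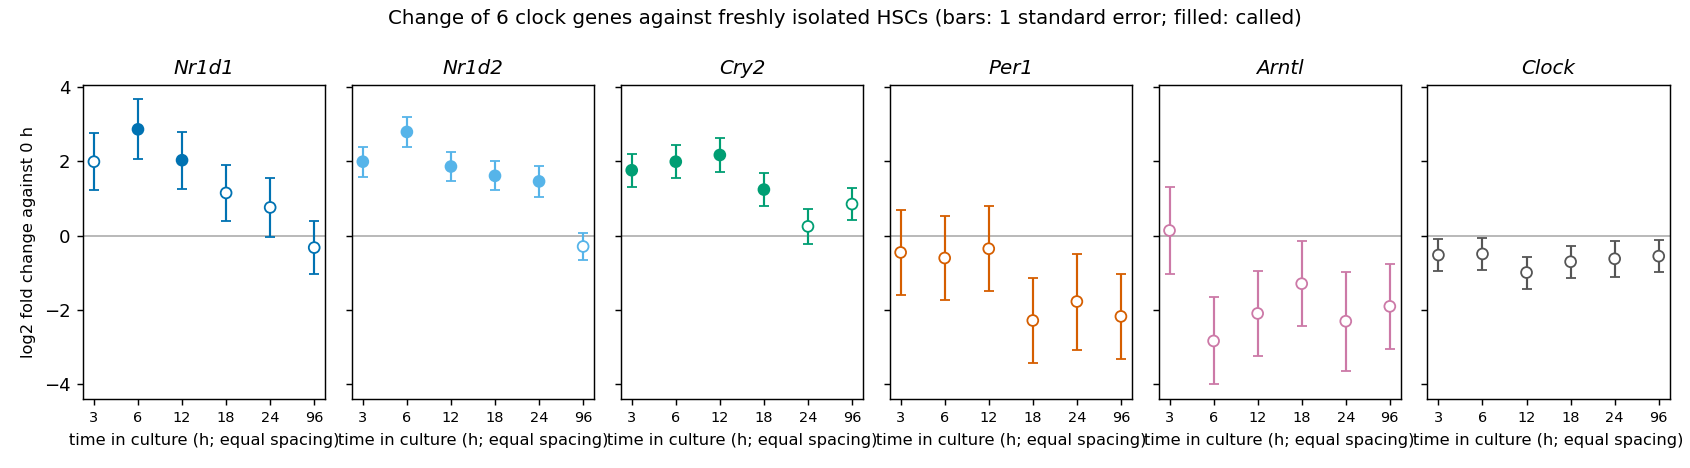
Log2 fold change against 0 h (y axis) of 6 clock genes at 3, 6, 12, 18, 24 and 96 h (x axis, equal spacing) from the fit over all genes, with bars of 1 SE and filled points for calls. *Nr1d1*, *Nr1d2* and *Cry2* have filled points above 0, whereas *Per1*, *Arntl* and *Clock* have open points, all below 0 except *Arntl* at 3 h (0.14).

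*Dbp* (chr7:45705088-45710203, plus strand), a target of BMAL1 and CLOCK and a transcription factor of the PAR bZIP family, was the member with no counts. The limit of 3 counts, 0.386 to 1.51 CPM depending on the sample, covers counting error only and does not cover reads from the overlap with another gene at its end. All of its last 300 exonic bases, where 3' end reads fall, lie under exons of *Sphk2*, a sphingosine kinase gene on the other strand, with 539 exonic bases in common. *Sphk2* itself was at 0 in both 0 h samples and had means of 20.9 to 48 CPM in culture. Among the 616 protein-coding genes whose last 300 exonic bases all lie under exons of the other strand, 31.8% had 0 counts in all samples. The share was 36.9% of the 19589 genes with no exon of another gene on either strand there. Genes at 0 include those not expressed in these cells, so these shares cannot show whether an overlap removes counts. The part of the overlap in the 0 counts of *Dbp* was not tested.

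Counted over the members that were tested, 2 of 9 were called higher at 3 h (*Cry2* and *Nr1d2*), where 4.19% of the 15138 genes tested were called higher and 1.39% lower. At 6 h and at 12 h 3 of 9 were called higher (*Cry2*, *Nr1d1* and *Nr1d2*), against 6.98% of all genes called higher and 4.35% lower at 6 h, and 8.6% and 9.1% at 12 h. At 18 h 3 of 9 were called higher (*Per2*, *Cry2* and *Nr1d2*), against 7.64% higher and 8.21% lower. At 24 h *Nr1d2* alone was called higher, against 5.65% higher and 3.86% lower, and at 96 h none was called, against 5.83% and 5.03%, which at 9 genes is close to these shares. No member was called lower at any time by edgeR, where 2 to 5 members had an unadjusted p under 0.05 at each time in either direction. DESeq2 called *Arntl* lower at 6 h and 12 h, *Clock* at 12 h, *Per1* at 18 h and *Cry1* at 18 h and 96 h. In either direction DESeq2 called 4, 5, 6, 5, 2 and 2 members at 3, 6, 12, 18, 24 and 96 h. It called 12.8%, 21.2%, 28.4%, 25.2%, 19.5% and 19.9% of the genes to which it gave an adjusted p. The median log2 change of the 9 members was 0.3, 1.99, 0, 0, 0 and −0.32 at 3, 6, 12, 18, 24 and 96 h, compared with 0.07 at 96 h and 0 at the other 5 times over all genes tested. The 6 h median includes fitted changes of 8.39 for *Per2* and 5.56 for *Per3*, both at 0 counts at 0 h. The medians of 0 at 12, 18 and 24 h are the value of *Per3*, which had 0 counts in both groups compared. The medians therefore do not describe a common change of the members. The comparisons against 0 h share the same 2 samples at 0 h, so their values are not independent of each other.

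Between successive times in culture no member was called at 6 h against 3 h, where 4.49% of all genes were called, at 12 h against 6 h (1.84%), at 18 h against 12 h (0.225%) or at 24 h against 18 h (0.0396%). At these 4 steps 1 or 2 members had an unadjusted p under 0.05. DESeq2 called *Arntl* lower at the first of these steps and no member at the other 3. It called 12.3%, 7.57%, 3.54% and 1.83% of all genes at the 4 steps. At 96 h against 24 h *Nr1d2* was called lower, against 2.72% of all genes called by edgeR and 7.39% by DESeq2, which called the same gene. In the test over the 7 timepoints, *Nr1d2*, *Cry2* and *Nr1d1* passed (edgeR adjusted p = 8.59e-05, 0.00526 and 0.0187), as did 27.4% of all genes. The same 3 passed over the 6 timepoints in culture, which does not use the 0 h samples (edgeR adjusted p = 3e-04, 0.0212 and 0.0309), as did 23.7% of all genes. In this test *Arntl* had an edgeR adjusted p of 0.245 and a DESeq2 adjusted p of 0.0361. In DESeq2 38.3% of all genes passed this test.

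Of 21 other genes of the clock and its outputs, 17 passed the filter on low counts. The genes called were *Nfil3*, *Bhlhe40*, *Rora* and *Npas2*, with 1 higher and 0 lower at 3 h and 6 h, 1 higher and 2 lower at 12 h, 3 lower at 18 h and 1 lower at 24 h and at 96 h. In either direction these were 5.88%, 5.88%, 17.6%, 17.6%, 5.88% and 5.88% of the 17 at the 6 times. These were near or below the shares of all genes called, which were 5.58%, 11.3%, 17.7%, 15.9%, 9.51% and 10.9%. *Nfil3*, which encodes the repressor that opposes DBP at D-boxes, was at 15.6 and 0 CPM at 0 h and rose to 67.1 to 86.3 CPM at 3 h, 62.8 to 90.2 CPM at 6 h and 74.4 to 140 CPM at 12 h. All samples at these times lay above both samples at 0 h, and it was called higher at each (edgeR adjusted p = 0.0905, 0.0582 and 0.0247). With 1 of the 2 samples at 0 h at 0 counts, the fitted log2 fold change rests on the other, and no fold is given. Over the fits without 1 sample it ran from 2.39 to 11.64 at 3 h, 2.29 to 11.57 at 6 h and 2.78 to 12.05 at 12 h. With the replicate number as a replicate block the 3 h call was lost (edgeR adjusted p = 0.145). It was also lost in 15 of the 19 fits without 1 sample, those other than both 0 h samples, 18 h replicate 2 and 96 h replicate 3 (edgeR adjusted p = 6.74e-05 to 0.164 over the 19), and the 6 h call was lost without 6 h replicate 1 (edgeR adjusted p = 0.105).

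*Bhlhe40*, also known as *Dec1*, which encodes a repressor acting on E-boxes, was at 171 and 448 CPM at 0 h and at 2.89 to 101 CPM in culture, with no overlap. It was called lower at 12 h (−3.11 ± 0.91), 18 h (−4.44 ± 0.95), 24 h (−5.28 ± 1.17) and 96 h (−4.51 ± 0.96) on the log2 scale (edgeR adjusted p = 0.0304, 0.00489, 0.00889 and 0.00584). The 12 h call was lost without 0 h replicate 2 (edgeR adjusted p = 0.247) and the 24 h call without 24 h replicate 1 (edgeR adjusted p = 0.113). *Rora*, which encodes the receptor that activates *Arntl* at the RORE, was at 71.3 and 102 CPM at 0 h and at 74.5 to 98.5 CPM at 6 h, and fell to 10.1 to 42.4 CPM at 12 h and 21.9 to 30.4 CPM at 18 h. The log2 change was −1.62 ± 0.46 at 12 h and −1.75 ± 0.46 at 18 h (edgeR adjusted p = 0.0257 and 0.019), both lost without 0 h replicate 2 (edgeR adjusted p = 0.19 and 0.139). *Rora* was also called lower at 12 h against 6 h (edgeR adjusted p = 0.0822), a call lost in 12 of the 19 fits without 1 sample (edgeR adjusted p = 0.0472 to 0.189 over the 19). *Rora* was thus at its 0 h level at 6 h, when the mean of *Arntl* was lowest, and low at 12 h and 18 h.

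*Npas2*, a paralog of *Clock*, was at 11 and 51.2 CPM at 0 h and at 0.975, 0 and 0 CPM at 18 h, the only time at which it was called lower (edgeR adjusted p = 0.0934, and 0.137 with the replicate number as a replicate block). That call was lost in 10 of the 19 fits without 1 sample, those without any sample of 0 h, 3 h or 96 h or without 18 h replicate 2 or 3 (edgeR adjusted p = 0.0509 to 0.3 over the 19). In the tests over time *Csnk1d*, a kinase gene for the PER proteins, and *Nampt*, a clock output of NAD synthesis, also passed over the 6 timepoints in culture (edgeR adjusted p = 0.0595 and 0.0477), with their highest means at 3 h (409 ± 79.9 CPM and 107 ± 36.3 CPM, SD, n = 3).

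**Figure D3:**
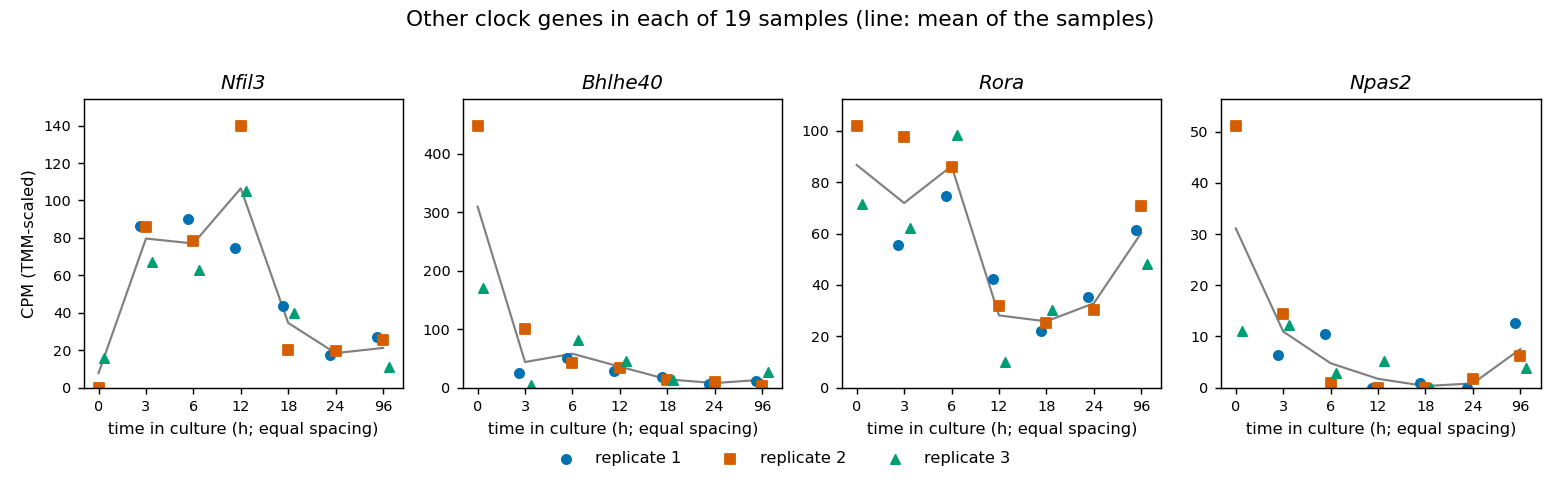
TMM-scaled CPM (y axis, linear, own scale per gene) of *Nfil3*, *Bhlhe40*, *Rora* and *Npas2* in each of the 19 samples against hours in culture (x axis, equal spacing), marked by replicate number, with a line through the means. *Nfil3* was highest at 12 h (mean 107 CPM), *Bhlhe40* had means of 310 CPM at 0 h and 43.9 CPM at 3 h, and *Rora* had means of 86.2 CPM at 6 h and 28.1 CPM at 12 h.

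The genes whose log2 CPM followed a member most closely over the 19 samples were taken from 8581 genes whose mean was 10 CPM or more, as a description with no test. For *Arntl* they were *Jam3*, *Vav2*, *Parp12*, *Zfp68* and *Fkbp5*, with Pearson r of 0.9 to 0.82. For *Per1* they were *C1rb*, *Tom1l2*, *H2-M3*, *Tead3* and *Nxf1*, with r of 0.89 to 0.86. For *Nr1d2*, chosen after its values were seen, they were *Ggnbp2*, *Ino80*, the chemokine genes *Ccl2* and *Ccl7*, and *Prpf38b*, with r of 0.93 to 0.9. These points share times in culture and isolation labels, and all of the genes named are read from the same libraries.

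The labelled cell type was checked against marker lists. The summed level of 10 stellate cell markers was 9290 to 11900 CPM at 0 h, 9320 to 10500 CPM at 3 h and 642 to 867 CPM at 24 h, with *Gfap* at 0 from 6 h on and *Ngfr* from 18 h on. The 8 hepatocyte markers summed to 3050 to 6720 CPM at 0 h, 374 to 1090 CPM at 3 h, 87.9 to 332 CPM at 6 h and 22.2 to 77.7 CPM at 96 h, and 1, 4 and 6 of them were called lower at 3, 6 and 12 h. *Arntl* at 3 h stood at its 0 h level while this sum was lower in all 3 samples. At 6 h *Arntl*, the hepatocyte sum and the stellate sum (5060 to 5330 CPM) were all below their 0 h levels. The part of these sums in the level of *Arntl* was not tested. Of the 8 Kupffer cell and leukocyte markers 7 had counts, *Marco* being at 0 in every sample. They summed to 289 to 342 CPM at 0 h and 21.7 to 60.3 CPM at 6 h, when *Clec4f*, *Cd5l*, *Adgre1* and *Cd68* were at 0. The 7 endothelial markers summed to 467 to 657 CPM at 0 h and 679 to 2360 CPM at 3 h, and replicate 1 had the highest sum of its timepoint at every time it was sampled. *Krt19* and *Krt7* of the cholangiocytes were at 0 in all samples. The 7 immediate early genes summed to 11600 to 16300 CPM at 0 h and 343 to 536 CPM at 96 h, and 1 to 7 of them were called lower at each time.

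Without the 6 samples numbered replicate 1, an alternative chosen after seeing the data, 2, 2, 3, 1, 0 and 0 members were called at 3, 6, 12, 18, 24 and 96 h against 0 h. Of all genes tested in that fit, 2.9%, 6.96%, 11.7%, 9.83%, 4.8% and 7% were called. In that fit *Nr1d2* was called at 3, 6, 12 and 18 h (edgeR adjusted p = 0.0213, 0.0037, 0.0189 and 0.0592) and *Nr1d1* at 3, 6 and 12 h (edgeR adjusted p = 0.0572, 0.0108 and 0.064), and *Cry2* only at 12 h (edgeR adjusted p = 0.0676). At 24 h that fit held replicate 2 alone, so its count and share at that time rest on 1 sample. No conclusion is drawn from them. The part of the changing marker levels and of the mitochondrial share in the changes of the clock genes was not tested. In these bulk samples, fewer cells of a type and less RNA per cell cannot be told apart.

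**Figure D4:**
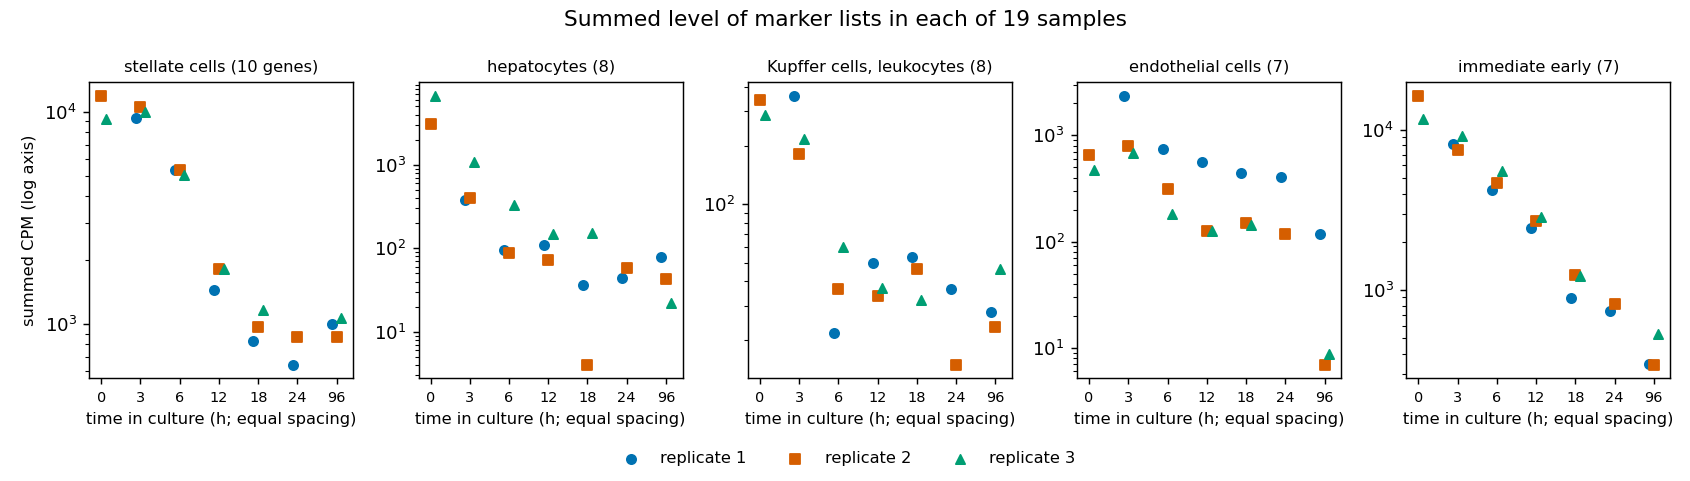
Summed TMM-scaled CPM (y axis, log scale) of 5 marker lists in each of the 19 samples against hours in culture (x axis, equal spacing), marked by replicate number. The stellate, hepatocyte and immediate early sums were lower in all samples from 6 h on than at 0 h, and the endothelial sum was highest in replicate 1 at every time it was sampled (2360 CPM at 3 h and 119 CPM at 96 h).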

How the data were processed

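RNA of 19 HSC samples was measured by sequencing the 3' ends of transcripts. The authors trimmed the reads and aligned them with STAR to mm10 (GRCm38), and the submitters' processing notes also name StringTie. The deposited table holds raw counts per gene. The counting tool, its strand setting and the annotation release are not given in the sources used here. Every sample stands for 2 technical repeats that the table does not separate, and no column of the table was left out.

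Symbols were matched to 55141 of 55487 Ensembl identifiers, and positions and overlaps came from GENCODE M21 (GRCm38). Genes were filtered with filterByExpr and scaled by TMM, and 15138 were fitted in 1 model of 7 timepoints with the quasi-likelihood F test of edgeR 4.0.16 (R 4.3.3, biological coefficient of variation 1.06). Called means a Benjamini-Hochberg adjusted p below 0.1 over all genes tested and a fold above 2, and below 0.1 with no fold limit in the tests over time. The script was tested on simulated data. Alternatives were other scalings, no filter, DESeq2 1.42.0, fits of the 2 groups alone, replicate number or isolation label as a term, and leaving out samples. Figures were drawn with matplotlib 3.10.9.

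Groups and replicate numbers came from the labels. The labels do not say what the number stands for, but samples with the same number carry the same isolation label. On this ground they were paired in the differences within a replicate number and in the alternative with a replicate block. The main fit had timepoint as its only term and was not paired. Residuals of samples with the same number had a mean correlation of 0.014 (51 pairs) against −0.007 (103 pairs) for other samples. The study describes the samples of a timepoint as independent repeats, replicates 1 and 3 share an isolation label, and p-values measure the spread between these samples. All 10 members are named. Of a list of 21 other clock genes, those called at 2 or more times against 0 h, or with a role beside a member, are named. For *Arntl*, *Per1* and *Dbp* the 5 genes most like them by Pearson r of log2 CPM (prior count 2) were to be named, which was not possible for *Dbp* at 0 counts. The members, lists and tests were chosen with earlier results of these data known.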

Additional observations from a re-analysis of the deposited data

How the results depend on the processing

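With DESeq2 in place of edgeR, 4, 5, 6, 5, 2 and 2 clock genes were called at 3, 6, 12, 18, 24 and 96 h against 0 h, compared with 2, 3, 3, 3, 1 and 0 with edgeR, which also called smaller shares of all genes, and 1 at 6 h against 3 h, compared with 0. With the 2 groups compared fitted alone, the calls were 1 at 3 h, 2 each for 24 h and 96 h against 0 h, and 2 for 96 h against 24 h. Without the filter on low counts 1 was called at 3 h, and with scaling by library size alone 2 were called at 24 h. Leaving out 1 sample at a time gave 0 to 3, 1 to 4, 2 to 4, 0 to 3, 0 to 2 and 0 to 1 calls at 3, 6, 12, 18, 24 and 96 h, 0 to 1 for the steps from 3 h to 6 h and from 24 h to 96 h, 3 to 4 over the 7 timepoints and 2 to 4 over those in culture. With replicate number 1 left out, chosen after seeing the data, there was 1 call at 18 h. This left 1 sample at 24 h, so no conclusion is drawn from that fit for comparisons with that time. The cause of these differences was not tested. Leaving out 1 of the 2 samples at 0 h or 24 h assumes that the other varies like the other groups.

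Of the single gene results, 577 kept their side of the threshold when 1 sample was left out, 84 lost a call and 4 gained one, and under the other alternatives 234 kept it, 37 lost a call and 9 gained one. None of them changed direction. The calls of *Nr1d2* at 6 h and 12 h, of *Cry2* at 12 h and of *Bhlhe40* at 18 h and 96 h held under every alternative run. The replicate number as a replicate block ended the calls of *Cry2* at 18 h (log2 fold change 1.25, edgeR adjusted p = 0.121), *Nfil3* at 3 h and *Npas2* at 18 h, and no other call among the genes named. Library size scaling shifted the log2 change of a gene by a median of 0.23, 0.27 and 0.14 at 18, 24 and 96 h. The median log2 change of all genes was then 0.08, 0.24 and 0.22 at these times, against 0, 0 and 0.07 with TMM. With 28 counts in 2 samples, changes of *Per3* were not detectable at this depth.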
